A study of Caenorhabditis elegans with 12 samples.

Results

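Genes named nhr followed by a number encode nuclear hormone receptors, and the deposited tables list 274 of them among 40961 gene names. They were chosen by that name pattern alone, and their values were followed in gonads dissected with needles from adult Caenorhabditis elegans. Of the 274 genes, 64 reached 1 RPKM (reads scaled to transcript length and to library size) in at least 4 of the 12 libraries and were tested, while the other 210 are described by their levels. The dissected adults were F3 animals, whose P0 ancestors had spent 48 h with 100 µM bisphenol A (BPA), an industrial chemical used to make plastics, with 0.1% of the solvent dimethyl sulfoxide (DMSO), or with water. All groups were kept at 20 °C on the bacterial strain OP50, and each was given by 4 libraries made from total RNA with the SMART-Seq chemistry for very little RNA. The sources used here name neither the worm strain nor the solvent of the BPA exposure. Libraries are named by ancestral exposure and sample number, as BPA 1 to BPA 4. The labels say neither what equal sample numbers share nor that samples of a group came from separate cultures, and p-values then reflect nothing more than how these samples scatter, which may be a technical matter.

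Nuclear hormone receptors are transcription factors in which a zinc finger domain binds DNA and a second domain can bind a small lipophilic ligand such as a steroid or a fatty acid. Ligand binding changes which coactivators or corepressors the receptor recruits, and so whether its target genes are transcribed. Nematodes have far more of these receptors than other animals, and most of them descend from a single ancestor related to the mammalian receptor HNF4. BPA is best known as a weak ligand of mammalian estrogen receptors and as a tight ligand of the mammalian estrogen-related receptor gamma, both of which belong to the same superfamily.

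The libraries had an estimated 14 to 33.5 M reads (M for mega), worked out from the smallest values in each table and therefore a rough figure. The gonad label was checked against 15 germline genes, including the yolk receptor gene rme-2 and the germ granule gene glh-1, all of which passed the filter, and whose summed level was 1992 RPKM in water 1 and 3981 to 6307 RPKM in the other 11 libraries. Among them, puf-5 was listed at 0 in BPA 3, DMSO 3 and water 3, and at up to 498 RPKM elsewhere. Likewise oma-2 was listed at 0 in BPA 1, BPA 4, DMSO 2, DMSO 4 and water 2, and at up to 186 RPKM elsewhere. The cause of these zeros was not tested. Over all tested genes, water 1 also correlated least with the rest, with a median Pearson r of 0.884 against 0.919 to 0.944 for the other libraries. These are bulk samples, in which fewer cells of a type and less RNA per cell cannot be told apart.

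Most nhr genes were barely detected in these gonads. Of the 274 genes, 198 stayed under 1 RPKM in every library, of which 4 (nhr-26, nhr-89, nhr-248 and nhr-285) were listed at 0 throughout, and 12 reached 1 RPKM in 1 to 3 libraries. The tested share was 23.4%, beside 18.5% of all gene names. Those names also include non-coding RNA loci, so the shares do not compare like with like. Among the 64 tested genes, 34 were at or above 1 RPKM in all 12 libraries. The median of their mean levels was 2.29 RPKM, beside 15.4 RPKM for all tested genes (7570), so the family sat in the low part of the range that can be tested here. Only 8 tested members had a mean of 10 RPKM or more, 43 lay between 1 and 10 RPKM, and 13 had a mean under 1 RPKM.

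The highest member was nhr-66, which encodes an HNF4-type receptor known to bind NHR-49 and to act on sphingolipid genes. BPA 1 to 4 stood at 51.7, 47.6, 55.7 and 45.8 RPKM, DMSO 1 to 4 at 47.5, 44.8, 59 and 44.9 RPKM, and water 1 to 4 at 59.9, 48.7, 45.6 and 43.6 RPKM. The 3 groups overlapped, and the mean over all libraries was 49.6 ± 5.69 RPKM (SD, n = 12). Next came nhr-49, an HNF4-type regulator of fatty acid breakdown and of the fasting response, at a mean of 37.1 ± 7.87 RPKM over the libraries (SD, n = 12). It was followed by nhr-23 at 22.8 ± 5.18 RPKM, the worm counterpart of the mammalian ROR receptors, which is needed for molting and for sperm formation. The mean of nhr-86, whose product responds to a metabolite of a bacterial pathogen and activates immune genes, was 21.8 ± 6.19 RPKM. The mean of nhr-61 was 17.8 ± 5.11 RPKM. These 5 genes together made up a median of 39.4% of the summed level of all 274 members in a library. The next 5 in order were nhr-46 (16.3 RPKM), nhr-78 (12.3 RPKM), nhr-228 (10.1 RPKM), nhr-47 (9.53 RPKM) and nhr-34 (8.93 RPKM).

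**Figure D1:**
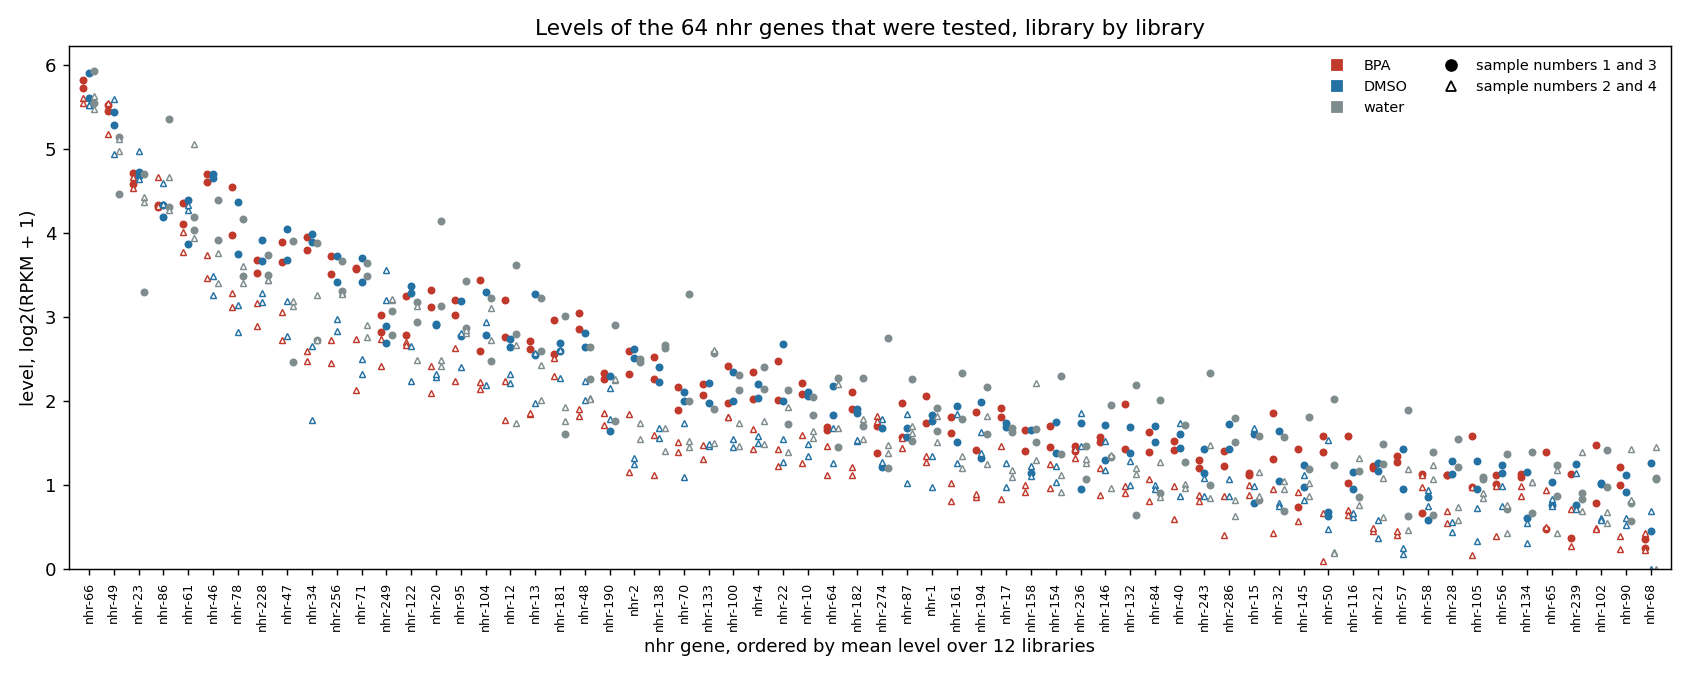
Level of each of the 64 tested nhr genes in the 12 libraries, as log2(RPKM + 1), ordered by mean level, with BPA in red, DMSO in blue and water in grey, filled circles for samples 1 and 3 and open triangles for samples 2 and 4. Levels run from nhr-66 at 43.6 to 59.9 RPKM down to nhr-68 at 0 to 1.75 RPKM, and water 1 is the low grey point of nhr-23 at 8.83 RPKM.

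Several receptors with counterparts across animals or with well-studied roles in worms did not pass the filter. Of 26 such members that were listed by name, 13 were tested. Among the untested ones was nhr-6, the NR4A receptor needed for the spermatheca and ovulation, at 0.0703 to 1.64 RPKM. The NR5A receptor gene nhr-25, which acts in epidermis and somatic gonad, had a mean of 0.267 RPKM. The fat desaturation regulator nhr-80 had a mean of 0.152 RPKM and was listed at 0 in 3 libraries. The mean of nhr-114, known to protect the germline under some bacterial diets, was 0.346 RPKM. The vitamin D receptor-like nhr-8 had a mean of 0.307 RPKM, and nhr-69 had 0.496 RPKM. The excretory canal regulator nhr-31 (0.257 RPKM), nhr-62, which acts in dietary restriction (0.248 RPKM), and the GCNF counterpart nhr-91 (0.193 RPKM) were untested as well. So were the E75 counterpart nhr-85 (0.103 RPKM), the tailless counterpart nhr-67 (0.0775 RPKM) and the DHR78 counterpart nhr-41 (0.0582 RPKM). The lowest of the list was nhr-111, which was listed at 0 in 10 of 12 libraries. The 3 members just inside the filter were nhr-90, nhr-102 and nhr-65, and nhr-90 stood at 1.01 RPKM in the fourth highest of its libraries. Just outside it lay nhr-42, nhr-76 and nhr-6, at 0.991, 0.99 and 0.977 RPKM in the fourth highest of theirs. For a member this low the values rest on few reads, an estimated 4 to 50 per library for nhr-90, against 2853 to 8837 for nhr-66.

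The family is concentrated on chromosome V, which carries 168 of the 272 members whose name matched a reference annotation. Only 32 of those 168 were tested (19%), against 15 of 34 on chromosome IV (44.1%). The remaining tested members lay on chromosomes I (4 of 24), II (3 of 16), III (3 of 8) and X (7 of 22). Next to another nhr gene lay 128 of the 274 members and 20 of the 64 tested ones. None of the tested members shared a transcript locus with another gene name, so the deposited models did not divide the reads of a locus between names for them. Coordinates are not given, because the files use the build ce10 and the annotation used for chromosome names is of another build.

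The first question was whether an ancestral BPA exposure was followed by a difference in these genes, relative to the DMSO group. In BPA against DMSO, 0 of the 64 tested members passed an adjusted p of 0.05 in limma, in a comparison that called 0.0264% of all tested genes. At an unadjusted p under 0.05 the count was also 0 members, beside 0.872% of all genes. The median log2 difference of the members was -0.01 on the log2(RPKM + 1) scale used throughout, which understates the change of low genes, and 29 of 64 lay above 0. Over all tested genes the median was 0.02, with 55.5% above 0. The median of the members turned with single libraries, from -0.16 without BPA 3 (8 of 59 members above 0) to 0.09 without DMSO 3 (40 of 60 above 0) and 0.09 without BPA 4 (44 of 64 above 0). No member had BPA and DMSO libraries without overlap, beside 1.08% of all genes. The median member had an unadjusted 95% confidence interval of ± 0.62 on that scale. In this fit, which holds no term for sample number, a difference of that size or less could not be told from 0 for a typical member. A call at an adjusted p under 0.05 needed a larger difference still.

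The members with the smallest p in BPA against DMSO all lay far from the threshold. The gene with the smallest, nhr-134, had 1.15, 0.824, 1.19 and 0.988 RPKM across BPA 1 to 4, against 0.526, 0.242, 1.23 and 0.469 RPKM across DMSO 1 to 4. DMSO 3 was the highest of these 8 libraries, so the groups overlapped. The log2 difference was 0.36 (SE 0.22, adjusted p = 1). On the other side, nhr-249 had 6.08, 5.7, 7.12 and 4.35 RPKM across BPA 1 to 4, against 5.45, 8.24, 6.44 and 10.8 RPKM across DMSO 1 to 4. Its highest library was DMSO 4 and its lowest BPA 4, but the other 6 libraries interleaved. The log2 difference of -0.34 (SE 0.23, adjusted p = 1) had the opposite sign in samples 1 and 3 alone, at 0.13. The log2 differences of nhr-58 (0.19), nhr-100 (0.17), nhr-194 (-0.32) and nhr-239 (-0.35) were likewise within an interval that included 0.

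Of the receptors with a well-known lipid role, nhr-49 averaged 42.2 ± 4.84 RPKM over the BPA libraries and 39.3 ± 7.45 RPKM over the DMSO libraries (SD, n = 4 each), a log2 difference of 0.11 with a 95% interval of -0.29 to 0.52. For nhr-66 the log2 difference was 0.04, with an interval of -0.25 to 0.33. The partner gene nhr-13, whose product also binds NHR-49, averaged 3.99 ± 1.59 RPKM over the BPA libraries and 5.37 ± 2.4 RPKM over the DMSO libraries (SD, n = 4 each), with a wide interval of -1.09 to 0.42 for the log2 difference.

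**Figure D2:**
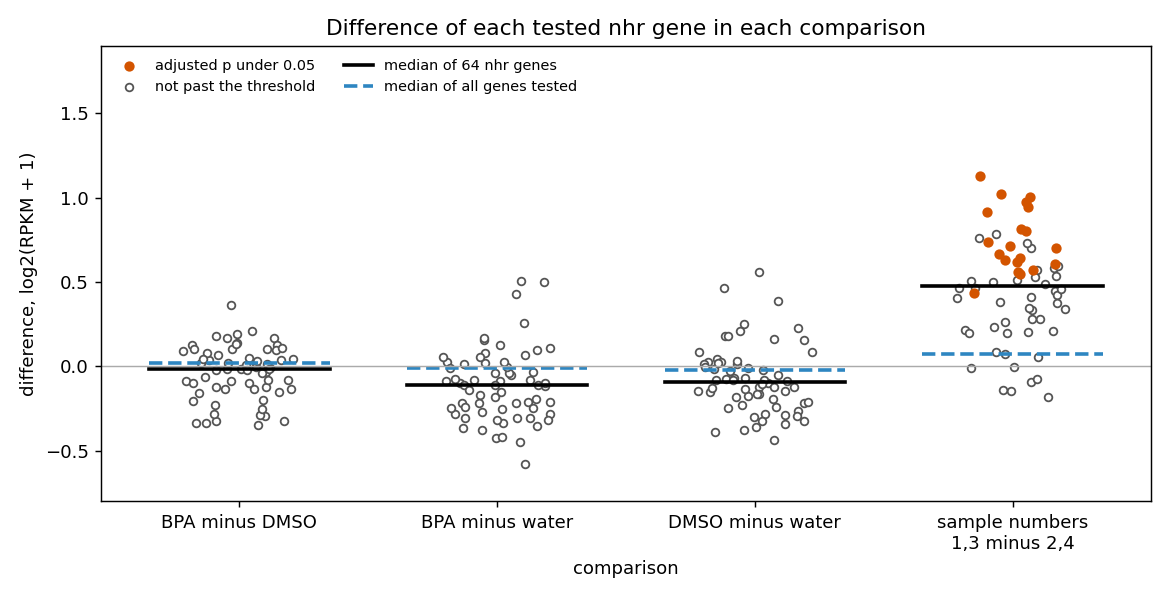
Difference of each tested nhr gene on the log2(RPKM + 1) scale in the 4 comparisons, with filled orange points past an adjusted p of 0.05, a black line at the median of the 64 nhr genes and a dashed blue line at the median of all tested genes. In the exposure comparisons 0 of 64 genes pass the threshold and the nhr medians are -0.01, -0.11 and -0.10, while between sample numbers 20 genes pass, all above 0, and the nhr median is 0.48.

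Against water the family gave the same count. In BPA against water, 0 of 64 members passed the adjusted threshold in limma, beside 0.0132% of all tested genes, and 1 member had an unadjusted p under 0.05, beside 2.71%. The median log2 difference of the members was -0.11, beside -0.01 over all genes, and 17 of 64 lay above 0, beside 48.2%. Without water 1 the median of the members was -0.06, beside 0.05 over all genes. The single member was nhr-49, which was also the only member whose BPA and water libraries did not overlap, beside 2.02% of all genes.

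BPA 1 to 4 had 44.8, 35.1, 42.9 and 45.8 RPKM of nhr-49, DMSO 1 to 4 had 38, 29.7, 42.3 and 47.3 RPKM, and water 1 to 4 had 21, 33.7, 34.4 and 30.5 RPKM. All 4 BPA libraries lay above all 4 water libraries, by a small margin between BPA 2 and water 3, and the DMSO libraries spanned both. The log2 difference of BPA against water was 0.50 (SE 0.18, 95% interval 0.10 to 0.90, adjusted p = 0.987). Without water 1, the lowest library, it was 0.34 (adjusted p = 1). In DMSO against water the log2 difference of nhr-49 was 0.39 (adjusted p = 0.999), and 0.23 without water 1.

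The sperm and molting regulator nhr-23 had 25.2, 22.1, 23 and 24.4 RPKM across BPA 1 to 4, against 24.7, 23.9, 25.5 and 30.4 RPKM across DMSO 1 to 4 and 8.83, 20.5, 25.1 and 19.6 RPKM across water 1 to 4. Water 1 lay far under the other 11 libraries, which ran from 19.6 to 30.4 RPKM. The log2 difference of BPA against water was 0.43 (SE 0.25, adjusted p = 0.987) and fell to 0.13 without water 1. For nhr-181 the values were 6.83, 4.71, 4.92 and 3.91 RPKM across BPA 1 to 4, against 2.06, 2.8, 7.05 and 2.41 RPKM across water 1 to 4, where water 3 was the highest of these 8 libraries. Its log2 difference was 0.51 (SE 0.30, adjusted p = 0.987), and 0.35 without water 1.

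On the lower side of BPA against water, nhr-68 had 0.288, 0.17, 0.193 and 0.352 RPKM across BPA 1 to 4, against 1.1, 1.75, 1.12 and 0 RPKM across water 1 to 4. Its product is known to switch on the breakdown of propionate together with NHR-10. Water 4 was listed at 0, so the groups overlapped, and the log2 difference of -0.58 had an adjusted p of 0.987. The partner gene nhr-10 averaged 2.58 ± 1.03 RPKM over the BPA libraries and 2.45 ± 0.527 RPKM over the water libraries (SD, n = 4 each), a log2 difference of 0.02. The HNF4-type lipid regulator nhr-64 had a log2 difference of -0.42 and nhr-158 of -0.43, with adjusted p = 0.987 each.

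The solvent comparison asked whether DMSO itself was followed by a difference. In DMSO against water, 0 of 64 members passed the adjusted threshold in limma (0.0132% of all genes), and 1 member, nhr-23, had an unadjusted p under 0.05 (1.7% of all genes). The median log2 difference of the members was -0.10 and 19 of 64 lay above 0, beside a median of -0.02 and 46.2% over all genes. Without water 1 the median of the members was 0.01, with 32 of 60 above 0. For nhr-23 the log2 difference was 0.56 (SE 0.25, adjusted p = 0.999), and without water 1 it was 0.26. The remaining members with the smallest p had log2 differences of 0.47 (nhr-181), -0.38 (nhr-134), -0.39 (nhr-158) and -0.30 (nhr-58). Without water 1 those of nhr-181 and nhr-58 were 0.31 and -0.45. In no member were the DMSO and water libraries fully apart, beside 0.885% of all genes. The 3 exposure comparisons share samples in pairs, so their values are not independent of each other.

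A larger difference ran across the exposure groups, between samples numbered 1 and 3 and samples numbered 2 and 4. The summed level of all 274 members was 412 and 474 RPKM for BPA 1 and BPA 3, against 296 and 290 RPKM for BPA 2 and BPA 4. In DMSO it was 402 and 463 RPKM in samples 1 and 3, and 304 and 328 RPKM in samples 2 and 4. In water it was 414 and 437 RPKM in samples 1 and 3, and 334 and 345 RPKM in samples 2 and 4. The 6 sums of samples 1 and 3 lay above the 6 sums of samples 2 and 4, without overlap and in each group.

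The 5 genes with the highest means showed no such gap. Their sum was 139 to 164 RPKM in samples 1 and 3 and 136 to 161 RPKM in samples 2 and 4. The other 269 members summed to 255 to 315 RPKM in samples 1 and 3 and to 137 to 199 RPKM in samples 2 and 4. The number of members at or above 1 RPKM was 57 to 71 in samples 1 and 3 and 39 to 55 in samples 2 and 4. The same count over all genes was not taken. Of all tested genes, 132 had no library of samples 2 and 4 at 1 RPKM or more, and 8 had none of samples 1 and 3.

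**Figure D3:**
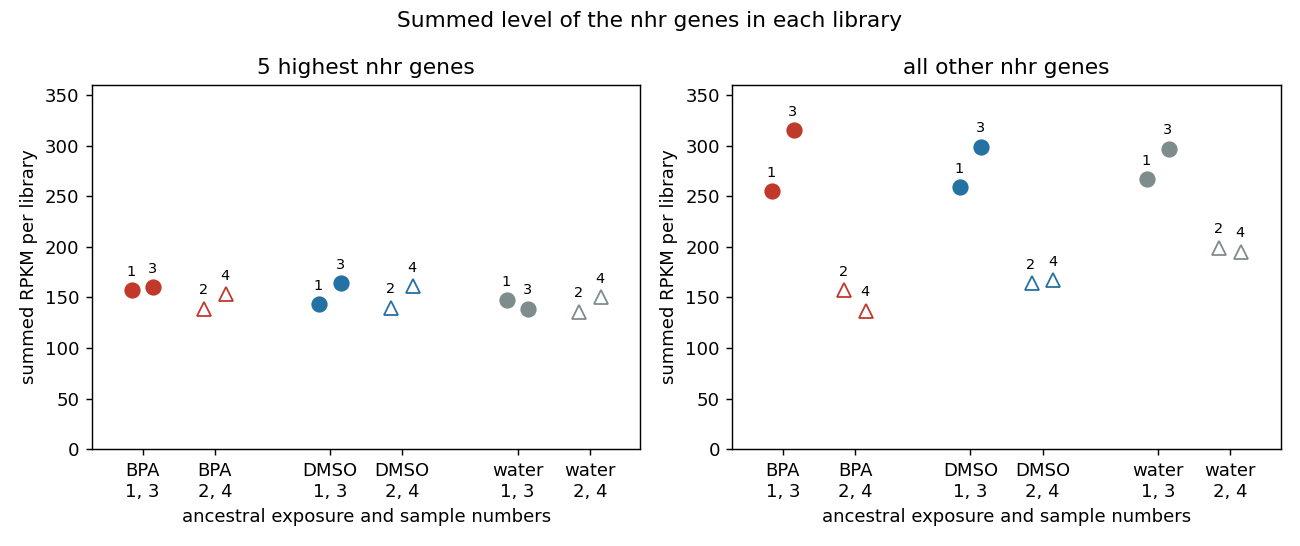
Summed RPKM per library of the 5 nhr genes with the highest means (left panel) and of all other nhr genes (right panel), each library a point marked with its sample number, with samples 1 and 3 (circles) left of samples 2 and 4 (triangles) in each exposure group. In the right panel samples 1 and 3 lie between 255 and 315 RPKM and samples 2 and 4 between 137 and 199 RPKM, while in the left panel the ranges overlap.

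In a fit with exposure group as a term, 20 of the 64 members were higher in samples 1 and 3 than in 2 and 4 at an adjusted p under 0.05, and 0 were lower. This is 31.2% of the members, beside 8.9% of all tested genes called higher and 0.277% called lower. At an unadjusted p under 0.05, 38 members were higher (59.4%), beside 18.5% of all genes. The median log2 difference of the members was 0.48, beside 0.07 over all genes, and 57 of 64 lay above 0, beside 60.1%. In 18 members the 6 libraries of samples 1 and 3 lay above the 6 of samples 2 and 4 without overlap (28.1%), beside 6.96% of all genes. The filter itself bears on these counts, because a gene may pass it through samples 1 and 3 alone. That was so for 4 tested members with no library of samples 2 and 4 at 1 RPKM or more (nhr-28, nhr-56, nhr-102 and nhr-105), of which nhr-28 and nhr-102 were called. Over all genes, 132 tested genes passed in that way and 8 through samples 2 and 4 alone. A wider set of 16 members reached 1 RPKM in at least 4 libraries of samples 1 and 3 but in fewer than 4 of samples 2 and 4. Of these, 4 were called (nhr-21, nhr-28, nhr-102 and nhr-286). Over all genes 613 were of this kind, with 22.7% called higher. Counts over the members that passed are therefore a description and no support for a difference of the family. With no filter, 10 of 270 members were called, beside 1.74% of 22449 genes in either direction, and the median of the members was 0.03. With a filter on the mean over all libraries of at least 1 RPKM, chosen after seeing the data, 17 of 51 members were called, beside 8.37% of all genes. With at least 1 RPKM in 8 libraries the count was 19 of 46, beside 9.79%. The split by sample number was known from earlier results of these data, and the labels do not say what the numbers stand for, so these calls describe the libraries and are not evidence for a named condition.

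One of the members with no overlap was nhr-2, which is known to act in the early embryo. Its level was 3.99 and 5.03 RPKM for BPA 1 and 3, against 2.6 and 1.23 RPKM for BPA 2 and 4. For DMSO 1 and 3 it was 4.7 and 5.15 RPKM, against 1.38 and 1.5 RPKM for DMSO 2 and 4. For water 1 and 3 it was 4.67 and 4.51 RPKM, against 2.34 and 1.93 RPKM for water 2 and 4. Every library of samples 1 and 3 exceeded every library of samples 2 and 4. The means were 4.68 ± 0.414 RPKM for samples 1 and 3 and 1.83 ± 0.555 RPKM for samples 2 and 4 (SD, n = 6 each), and the log2 difference was 1.02 (SE 0.15, adjusted p = 0.00603). The estimated reads behind nhr-2 were 42 to 318 per library.

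The member with the smallest p was nhr-71, on the X chromosome, with 10.9 and 11 RPKM for BPA 1 and 3, against 5.7 and 3.38 RPKM for BPA 2 and 4. DMSO 1 and 3 had 9.66 and 12 RPKM, against 4.02 and 4.66 RPKM for DMSO 2 and 4, and water 1 and 3 had 11.5 and 10.2 RPKM, against 6.5 and 5.81 RPKM for water 2 and 4. The samples numbered 1 and 3 were again all above the others. Its log2 difference was 1.00 (SE 0.14, adjusted p = 0.00508), and its ranges were 9.66 to 12 RPKM in samples 1 and 3 and 3.38 to 6.5 RPKM in samples 2 and 4. For nhr-138, on chromosome IV, the ranges were 3.7 to 5.35 RPKM in samples 1 and 3 and 1.18 to 2.22 RPKM in samples 2 and 4, with a log2 difference of 0.95 (SE 0.14, adjusted p = 0.00603). The abundant nhr-46 averaged 21.9 ± 4.3 RPKM in samples 1 and 3 and 10.6 ± 1.58 RPKM in samples 2 and 4 (SD, n = 6 each), and the lowest of samples 1 and 3, at 14.1 RPKM, was above the highest of samples 2 and 4, at 12.6 RPKM (log2 difference 0.97, adjusted p = 0.00693).

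Among the called members with a studied role, nhr-48 belongs to the group of DAF-12 and NHR-8, which resembles the vitamin D and xenobiotic receptors of vertebrates. It ranged from 3.82 to 7.27 RPKM in samples 1 and 3 and from 2.55 to 3.71 RPKM in samples 2 and 4 (log2 difference 0.70, adjusted p = 0.0148). The propionate regulator nhr-10 averaged 3.17 ± 0.344 RPKM in samples 1 and 3 and 1.81 ± 0.284 RPKM in samples 2 and 4 (SD, n = 6 each; log2 difference 0.57, adjusted p = 0.0189), while its partner nhr-68 had a log2 difference of 0.28 (adjusted p = 0.644). The NHR-49 partner nhr-13 had 4.87 to 8.7 RPKM in samples 1 and 3 and 2.6 to 4.96 RPKM in samples 2 and 4 (log2 difference 0.72, adjusted p = 0.0345). The overlap came from DMSO 2, the highest of samples 2 and 4, which stood just above DMSO 3. For nhr-49 itself the test found no such difference: the log2 difference of nhr-49 was -0.01 (SE 0.16, adjusted p = 0.984).

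The other called members spanned levels from under 1 RPKM to over 10 RPKM. Of these, nhr-20 (log2 difference 0.92), nhr-286 (0.74), nhr-21 (0.66), nhr-4 (0.62), nhr-17 (0.61) and nhr-100 (0.56) kept samples 1 and 3 fully above samples 2 and 4. So did nhr-256 (0.63) and nhr-228 (0.44). Both nhr-286 and nhr-21 reached 1 RPKM in fewer than 4 libraries of samples 2 and 4, and so passed the filter only with samples 1 and 3. The ranges of nhr-28 and nhr-102 were also apart, but both passed the filter through samples 1 and 3 alone, and in samples 2 and 4 they stood at 0.363 to 0.675 RPKM and 0.397 to 0.61 RPKM in that order. The largest log2 difference, 1.13 in nhr-34, came with overlap, because water 1 stood at 5.65 RPKM and water 2 at 8.57 RPKM. The ranges of nhr-78 (log2 difference 0.82) and nhr-12 (0.80) overlapped too. When each library was left out in turn, 10 of the 20 stayed called in every fit: nhr-2, nhr-4, nhr-20, nhr-21, nhr-28, nhr-46, nhr-48, nhr-71, nhr-138 and nhr-286. Of these, nhr-21, nhr-28 and nhr-286 needed samples 1 and 3 to pass the filter. The count itself ranged from 10 without BPA 3 to 24 without water 1, and was 11 without BPA 4, 12 without BPA 2, 12 without DMSO 4 and 13 without DMSO 3. The share of all genes called in either direction moved with it, from 5.42% to 13.2%. The scaling of the libraries also moved the count. Under quantile normalization, which gives all libraries the same distribution, the count was 0, beside 1.14% of all genes, and 18 members had an unadjusted p under 0.05 in limma, beside 16.8%. Scaling by the median ratio gave 11, beside 6.84%. Both scalings moved the median over all genes to -0.03, while the median log2 difference of the members was 0.20 with quantile normalization and 0.40 with the median ratio, with 48 and 56 of 64 members above 0.

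**Figure D4:**
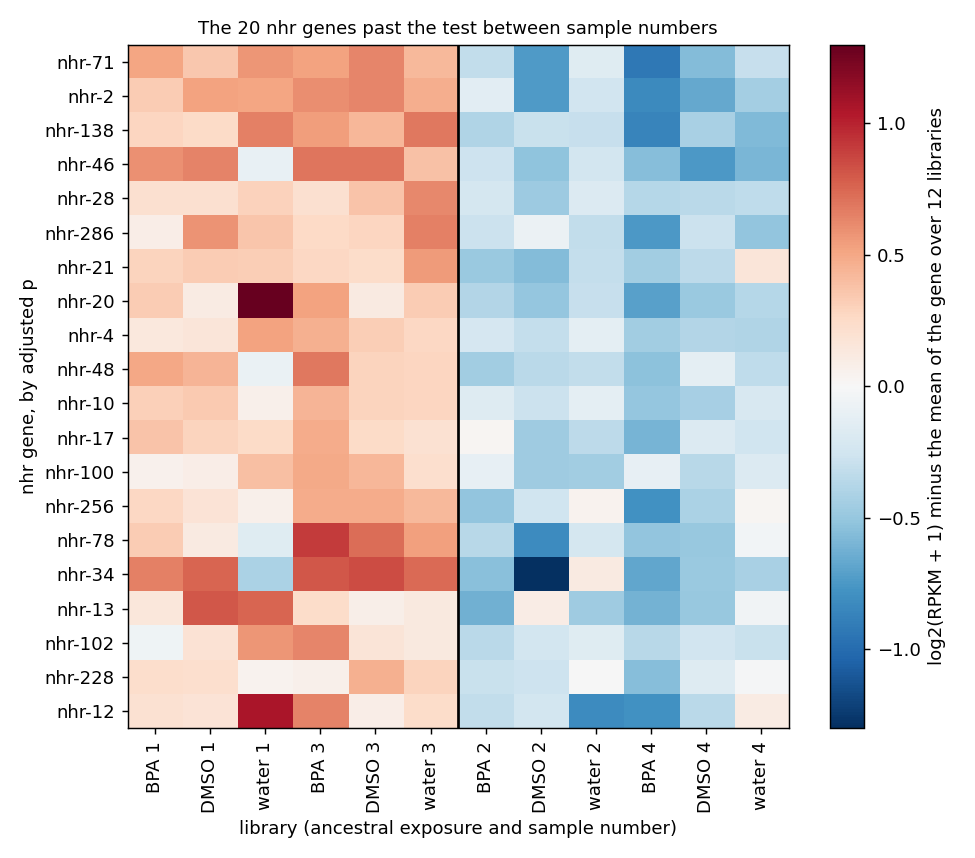
Heat map of the 20 nhr genes called between sample numbers (rows, by adjusted p) in the 12 libraries (columns), with samples 1 and 3 left of the black line and samples 2 and 4 right of it. Colour gives log2(RPKM + 1) minus the mean of the gene over the libraries, red above and blue below it, and in nhr-2 and nhr-71 every library left of the line is red and every library right of it blue, while in nhr-34 water 1 (5.65 RPKM) is blue.

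On the other side, 3 of the members with log2 differences under 0 had the smallest p, all with adjusted p-values far from the threshold. They were nhr-249 (-0.18, adjusted p = 0.656), nhr-58 (-0.14, adjusted p = 0.717) and nhr-23 (-0.15, adjusted p = 0.786). The value of nhr-23 turned to 0.06 without water 1. The most abundant member, nhr-66, averaged 53.2 ± 5.97 RPKM in samples 1 and 3 and 45.9 ± 1.89 RPKM in samples 2 and 4 (SD, n = 6 each; log2 difference 0.20, adjusted p = 0.24). The hypoxia-induced nhr-57 missed the threshold with a log2 difference of 0.76 (adjusted p = 0.0674), and nhr-40, which acts in muscle development, with 0.46 (adjusted p = 0.152).

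Within single exposure groups, both of samples 1 and 3 exceeded both of samples 2 and 4 in 54 of 64 members in BPA, 39 in DMSO and 26 in water, beside 34.9%, 27.6% and 24.8% of all tested genes. In 20 members this held in all 3 groups and in 9 members in 0 groups, beside 9.23% and 47.3% of all tested genes. The members' median log2 difference was 0.63 within BPA, 0.45 within DMSO and 0.33 within water, beside 0.075, 0.03 and 0.19 over all genes. In each group 0 members were called, where 2 libraries met 2, beside 0.172%, 0.198% and 0.0132% of all genes within BPA, DMSO and water. At an unadjusted p under 0.05, limma gave 24 members within BPA, 15 within DMSO and 3 within water, beside 19.2%, 13.7% and 4.81% of all genes. Whether the gap differed between exposure groups was tested as an interaction, chosen after seeing the data. It called 0 members for BPA against DMSO, BPA against water and DMSO against water, beside 4, 4 and 3 of all 7570 tested genes. With so few calls over all genes, 0 among the members is no result about them. At an unadjusted p under 0.05 limma gave 2, 2 and 4 members, beside 1.81%, 5.44% and 7.23% of all genes. The smallest adjusted p among members was 1, 0.655 and 0.586 in the same order.

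Level and chromosome both moved with the size of the gap. Among genes with a mean under 10 RPKM, 17 of 56 members were called higher in samples 1 and 3 (30.4%), beside 16.5% of all 3308 tested genes in that range. With means of 10 RPKM or more, 3 of 8 members were called, beside 2.98% of 4262 genes. In narrower bands, 3 of 13 members under 1 RPKM were called, beside 9.77% of all genes in the band, and 2 of 15 between 1 and 2 RPKM, beside 10.9%. The band from 2 to 5 RPKM held 7 called members of 18, beside 21%, and the band from 5 to 10 RPKM 5 of 10, beside 19.9%. The 3 of 8 with means from 10 to 60 RPKM stood beside 4.07% of all genes in that band.

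The X chromosome stood apart over all genes, with 38.1% of its 830 tested genes called higher in samples 1 and 3, against 3.82% to 6.99% on the autosomes. Of the 7 tested members on X, 4 were called (nhr-17, nhr-28, nhr-48 and nhr-71), and the median log2 difference of the 7 was 0.61, beside 0.60 over all tested X-linked genes. On the autosomes 16 of 57 members were called (28.1%), beside 5.11% of 6593 genes. Restricted to autosomal genes with a mean under 10 RPKM, the figures were 13 of 49 members (26.5%) and 10.3% of 2535 genes. Chromosome IV held 6 called members of 15 and chromosome V 6 of 32.

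**Figure D5:**
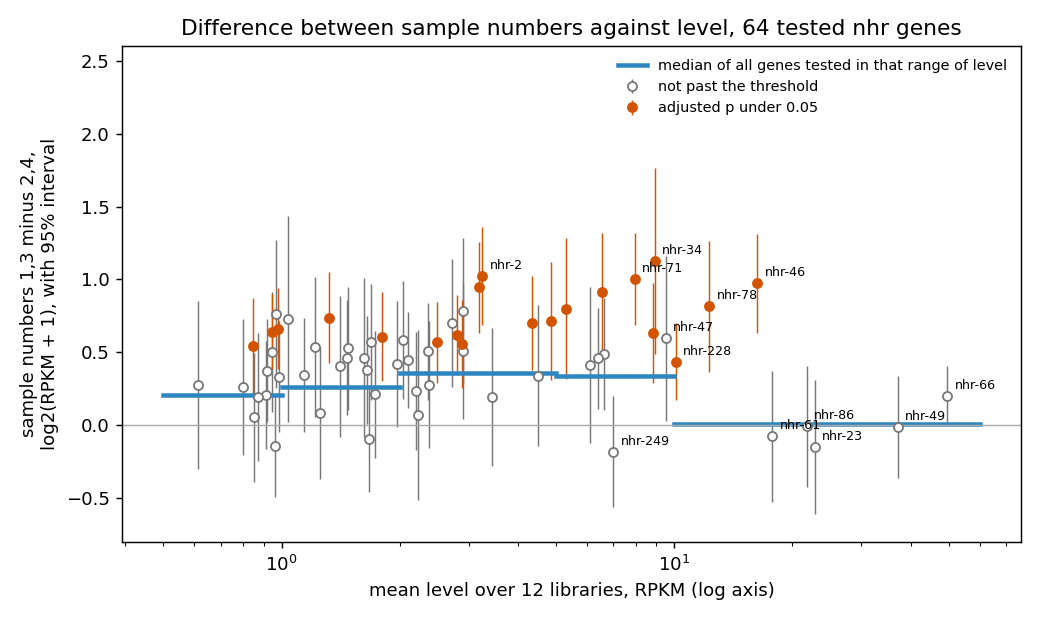
Difference between samples 1 and 3 and samples 2 and 4 on the log2(RPKM + 1) scale, with its 95% interval, against mean level in RPKM (log axis) for the 64 tested nhr genes, with filled orange points past an adjusted p of 0.05. Blue lines give the median of all tested genes in bands of level, 0.36 between 2 and 5 RPKM and 0.01 between 10 and 60 RPKM. The called genes run from 0.44 (nhr-228) to 1.13 (nhr-34).

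Markers of other tissues were set against the same split. Of 9 tested muscle genes, 5 were called higher in samples 1 and 3 (myo-3, unc-54, unc-15, mup-2 and pat-10), beside 8.9% of all genes, and all 9 lay above 0 with a median log2 difference of 0.98. Of the 5, myo-3 passed the filter through samples 1 and 3 alone, and stood at 0.159 to 0.694 RPKM in samples 2 and 4. The summed level of the list of 12 ran from 185 to 509 RPKM in samples 1 and 3 and from 82.1 to 168 RPKM in samples 2 and 4. A large part of it was pat-10, at 67.6 to 325 RPKM in samples 1 and 3 and 12.4 to 35.2 RPKM in samples 2 and 4. The next by mean level, act-4, overlapped, at 36.8 to 87.6 RPKM and 37.8 to 74.1 RPKM in the same order. The neuronal unc-119 was called higher among 3 tested neuron genes. Of the tested genes on the other lists, 0 were called (8 intestinal, 7 somatic gonad, 4 sperm, 1 hypodermal and 15 germline). The summed intestinal level was 23.3 to 979 RPKM in samples 1 and 3 and 20.9 to 93.8 RPKM in samples 2 and 4, with asp-1 listed at 0 in every library. The 979 RPKM was DMSO 3, followed by water 3 at 260 RPKM, and BPA 1 (23.3 RPKM) lay under BPA 2 (93.8 RPKM) and BPA 4 (35.3 RPKM). Of the 8 tested intestinal genes 7 lay above 0, with a median log2 difference of 1.61. The yolk genes vit-1, vit-2, vit-4, vit-5 and vit-6 stood at 1.53 to 2.10, with SEs of 0.68 to 0.86. The others were act-5 (0.38), cpr-1 (0.55) and spp-1 (-0.11). Of the 7 tested genes on the somatic gonad list 6 lay above 0, with a median of 0.35, and of the 15 germline genes 5, with a median of -0.10. The gene of the somatic gonad list below 0 was inx-14 (-0.29). Both inx-14 and inx-22 on that list encode gap junction proteins of germ cells. The summed germline level was 1992 to 5011 RPKM in samples 1 and 3 and 3981 to 6307 RPKM in samples 2 and 4, sums that include puf-5 and oma-2 with their zeros. The other lists overlapped as well, with neuron sums of 6.95 to 15.4 RPKM in samples 1 and 3 and 4.89 to 28.7 RPKM in samples 2 and 4. The sums of the sheath and somatic gonad list were 293 to 411 RPKM and 267 to 415 RPKM in the same order. They include inx-14, at a mean of 175 RPKM, and inx-22, at 95.7 RPKM in water 1 and listed at 0 elsewhere. Sperm genes summed to 20.6 to 518 RPKM in samples 1 and 3 and 20.1 to 30.7 RPKM in samples 2 and 4, and hypodermal genes to 2.7 to 8.46 RPKM and 1.58 to 29.9 RPKM, with elt-1 listed at 0 throughout. The part of these markers in the difference of the nhr genes was not tested.

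Other genes of the same pathway were followed as lists. Of 5 nuclear receptor genes that bear other names, only sex-1 was tested, whose product helps to count X chromosomes in sex determination. The gene itself lies on X, where 38.1% of tested genes were called higher in samples 1 and 3, beside 8.9% of all tested genes. It averaged 7.09 ± 1.19 RPKM in samples 1 and 3 and 2.67 ± 0.446 RPKM in samples 2 and 4 (SD, n = 6 each; log2 difference 1.14, adjusted p = 0.00442), with log2 differences of 0.10 for BPA against DMSO (adjusted p = 1) and 0.10 for BPA against water (adjusted p = 0.991). The steroid receptor gene daf-12 had a mean of 0.33 RPKM and was not tested, nor was daf-9, which makes its ligand, at a mean of 0.0208 RPKM. Of the ligand synthesis list only emb-8, a cytochrome P450 reductase gene, was tested, with 0 calls in the 4 comparisons and a mean of 47.4 RPKM.

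Of 13 tested cofactor genes, 6 were called higher in samples 1 and 3, beside 8.9% of all genes, 0 lower, and 0 in any exposure comparison. Among the genes called, dpy-22 is X-linked. The 6 were the acetyltransferase gene cbp-1 (log2 difference 0.41), the DAF-12 corepressor gene din-1 (0.88), the NCoR-like corepressor gene gei-8 (0.90), the SREBP gene sbp-1 (0.58), and the Mediator kinase module genes let-19 (0.88) and dpy-22 (0.94). The Mediator subunit gene mdt-15, whose product is the coactivator of NHR-49, averaged 40.3 ± 8.37 RPKM over the BPA libraries, 39.7 ± 8.71 RPKM over the DMSO libraries and 35.9 ± 19.6 RPKM over the water libraries (SD, n = 4 each), with 6.97 RPKM in water 1. Its log2 difference of 0.45 for BPA against water turned to -0.19 without water 1, and that of 0.42 for DMSO against water to -0.21. Of 11 reported targets of NHR-49, NHR-80, NHR-10 or NHR-68 found by name, 3 were tested and 0 were called in any of the 4 comparisons. The fasting-induced acyl-CoA synthetase gene acs-2, a target of NHR-49, averaged 33.5 ± 5.17 RPKM over the BPA libraries, 34.8 ± 8.06 RPKM over the DMSO libraries and 41.2 ± 14.1 RPKM over the water libraries (SD, n = 4 each), a log2 difference of -0.24 for BPA against water (adjusted p = 0.987), and -0.06 without water 1.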

How the data were processed

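Each of the 12 libraries came with a table of transcript values that the authors deposited, in RPKM for 11 libraries and in FPKM for BPA 1, per the file headers. Both are the same quantity for single-end reads, here 50 bp long per the labels, and were used alike. Per the submitters' processing notes, HISAT, StringTie and the build ce10 were used, with versions, annotation and filters not stated there. No strand-keeping step is named, so antisense overlaps are uncertain. The files hold no counts: 29.3% to 35.3% of low values were whole reads within 0.1 read, too few to test counts.

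Values were summed per gene name with Python 3.11.15. Of these sums, the 7570 that reached 1 RPKM in 4 or more libraries entered limma 3.58.1 (R 4.3.3) as log2(RPKM + 1). The fit held every library, let the variance follow intensity, was two-sided and was adjusted by Benjamini-Hochberg over all tested genes, with calls at an adjusted p under 0.05. Simulated data with known changes were used to test it. Chromosomes were matched by gene name or synonym to the RefSeq annotation and, where that gave none, to the Ensembl annotation (272 of 274 members). Neighbouring nhr genes were taken from the RefSeq annotation. Alternatives were other pseudocounts, filters and scalings, array weights, merged loci, a replicate block, sample numbers as a term or apart, and leaving out each library.

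The members, lists and the split by sample number were chosen with earlier results of these data known. Named are the members called, the 10 with the highest means, the 3 with the smallest p in each direction of a comparison, members with a known role, and those nearest the filter. Sequences were not used here.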

Additional observations from a re-analysis of the deposited data

Results flagged for a closer look

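In 4 of the 117 sets of 4 libraries checked (tested members named by the rule for named genes, in each exposure group), 1 library lay far from the other 3, where chance marks about 1 in 20. The level of nhr-86 was 24.4 RPKM in BPA 4 and 18.8 to 19.1 RPKM in the other BPA libraries. The level of nhr-61 was 32.2 RPKM in water 4 and 14.4 to 17.2 RPKM in the other water libraries. In water 3, nhr-181 was at 7.05 RPKM, against 2.06 to 2.8 RPKM in the other water libraries. In the same library, nhr-256 was at 11.7 RPKM, against 8.66 to 8.92 RPKM in the others.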

How the results depend on the processing

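In the 3 exposure comparisons, the count of called members was 0 under all 26 alternatives each, the fit with a replicate block included (0). For samples 1 and 3 against 2 and 4 the main count of 20 changed by over 1.5 times with no filter on low values (10), median ratio scaling (11) and quantile normalization (0), and was 0 within BPA, 0 within DMSO and 0 within water alone. Leaving out 1 library gave 10 to 24 calls. The cause of these changes was not tested, except that fits within a group hold fewer samples. Of 946 alternatives for 41 named values, 768 kept direction and side of the threshold, 173 kept direction but lost the call, and 5 changed sign. These were nhr-249 in BPA against DMSO with samples 1 and 3 alone (0.13), nhr-249 between sample numbers within BPA (0.34), and nhr-23 between sample numbers with array weights (0.05), without water 1 (0.06; -0.29 to 0.06 when each library was left out) and within BPA (0.05). Same-numbered libraries of different groups had correlated deviations in 5 of 12 pairs (r over 0.1, range -0.07 to 0.34, median 0.09), and 6 of 12 libraries correlated best with their own number. Pairs with other numbers, both odd or both even, passed 0.1 in 2 of 12 (median 0.04), and pairs of 1 odd and 1 even number in 2 of 24 (median -0.08). Same-numbered pairs thus correlated more often, but the labels do not say what equal numbers share, and the numbers were not taken to pair samples. The block left the count of called members at 0 (over all genes 1 call with the block, against 2 without, in BPA against DMSO, and 0 against 1 in BPA against water). Low members rest on few reads, which limits the smallest difference that can be seen.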
